A study of Mus musculus with 2 samples.

Results

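The facilitative glucose transporters form the Slc2a gene family, whose proteins (GLUT proteins) let hexoses and a few related solutes pass the membrane. The 10 genes described here are Slc2a1, Slc2a3, Slc2a4, Slc2a5, Slc2a6, Slc2a8, Slc2a9, Slc2a10, Slc2a12 and Slc2a13. They were found by gene symbol among 43346 annotated genes, of which 42462 had a symbol, and each matched 1 gene. The rule that selects them uses no measured value.

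Polyadenylated RNA longer than 200 nucleotides was sequenced with stranded paired reads of 76 bases from subcutaneous adipose tissue of C57BL/6J mice aged 8 weeks. There are 2 libraries in 1 group, labelled biological replicates 1 and 2, with no treatment, mutation or control. Per the labels each comes from its own tissue sample, both samples share a donor record, and the sex is given as pooled male and female. The spread between the libraries may therefore be technical as well as biological, and no p-value can be given for it.

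Both libraries held the fat cell markers, and they differed in the level of these and in markers of several other cells. Estimated gene counts were 53601218 in replicate 1 and 57500971 in replicate 2. The 6 adipocyte markers summed to 5040 TPM in replicate 1 and 18263 TPM in replicate 2, where TPM is a gene's share of all transcripts, corrected for length and scaled to a fixed total. The 5 epithelial markers summed to 464.5 TPM in replicate 1 and 3.30 TPM in replicate 2, the 5 smooth muscle markers to 5238 and 631 TPM, and the 5 markers of uterus and reproductive tract to 725 and 20.3 TPM, with 1 of these 5 at 0 counts in replicate 2. The 4 Y-linked genes checked held 6 counts in replicate 1 and 4 counts in replicate 2, against 45378 and 25266 counts of Xist, although the label names both sexes.

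GLUT proteins carry sugar down its gradient without spending energy. In fat and muscle, insulin moves GLUT4, the product of Slc2a4, out of storage vesicles to the cell surface, while GLUT1, the product of Slc2a1, serves basal uptake in many cell types. The family is divided by sequence into class I (here Slc2a1, Slc2a3 and Slc2a4), class II (Slc2a5 and Slc2a9) and class III (Slc2a6, Slc2a8, Slc2a10, Slc2a12 and Slc2a13), and several class III proteins stay on membranes inside the cell.

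The 10 genes were all detected, and Slc2a4 led in both libraries. Each of the 10 had 1 TPM or more in each library, as did 29.4% of the annotated genes and 55.5% of protein-coding genes. Together they summed to 331 TPM in replicate 1 and 357 TPM in replicate 2 (344 ± 18.9 TPM, SD, n = 2). Slc2a4 took 50.7% of that sum in replicate 1 and 70.3% in replicate 2. Class I genes took 63.9% and 75.6%, class II genes 8.72% and 6.63%, and class III genes 27.4% and 17.8%.

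**Figure D1:**
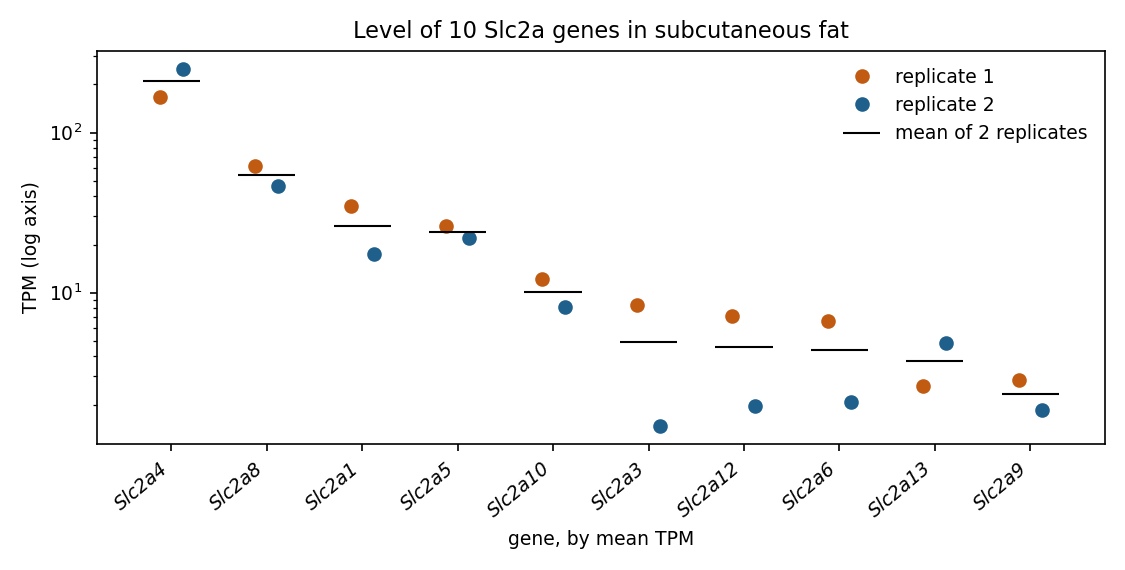
TPM of the 10 Slc2a genes on a log axis, with 1 point for each replicate and a line at the mean of both, ordered by mean. Slc2a4 lies above the others in both replicates, and Slc2a3, Slc2a12 and Slc2a6 show the widest gaps between the replicates.

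By mean TPM the order was Slc2a4, Slc2a8, Slc2a1, Slc2a5, Slc2a10, Slc2a3, Slc2a12, Slc2a6, Slc2a13 and Slc2a9. Slc2a4 lay apart from Slc2a8, Slc2a8 from Slc2a1 and Slc2a5 from Slc2a10, in that the ranges of the 2 replicates did not overlap. The ranges of Slc2a1 and Slc2a5 overlapped, and so did those of each pair of neighbours from Slc2a10 down to Slc2a9. Within each library, Slc2a10 still lay above Slc2a3 (12.2 against 8.37 TPM in replicate 1, 8.16 against 1.46 TPM in replicate 2). It also lay above the rest of the lower 6 in each library. Each pair of neighbours below Slc2a10 changed order between the libraries, so the order below it is not resolved. With protein-coding transcripts alone, Slc2a4 stayed apart from Slc2a8, but the other separations were lost. Slc2a8 (32.2 TPM in replicate 1 and 42.4 TPM in replicate 2) then overlapped Slc2a1 (35.1 and 17.4 TPM). Slc2a5 (11.45 and 9.53 TPM) likewise overlapped Slc2a10 (12.2 and 8.16 TPM). Slc2a1, whose range overlapped that of Slc2a5 with all transcripts, then lay apart above both Slc2a5 and Slc2a10.

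Replicates were compared by estimated counts scaled with TMM factors, which set a trimmed mean of the gene ratios to no change. The ratio is replicate 1 over replicate 2, and its 95% Clopper-Pearson interval covers counting error only. For a call of over 2-fold apart, the scaled counts had to average at least 100 and the whole interval had to lie above 2 or below 0.5. By this rule 4 of the 10 genes were apart, 2 higher in replicate 1 (Slc2a3 and Slc2a12) and 2 higher in replicate 2 (Slc2a4 and Slc2a13). Among 13403 genes tested the share was 23.1%, made up of 12.5% that were higher in replicate 1 and 10.6% in replicate 2. The median log2 ratio was -0.14 over the 10 genes and -0.04 over all genes tested.

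**Figure D2:**
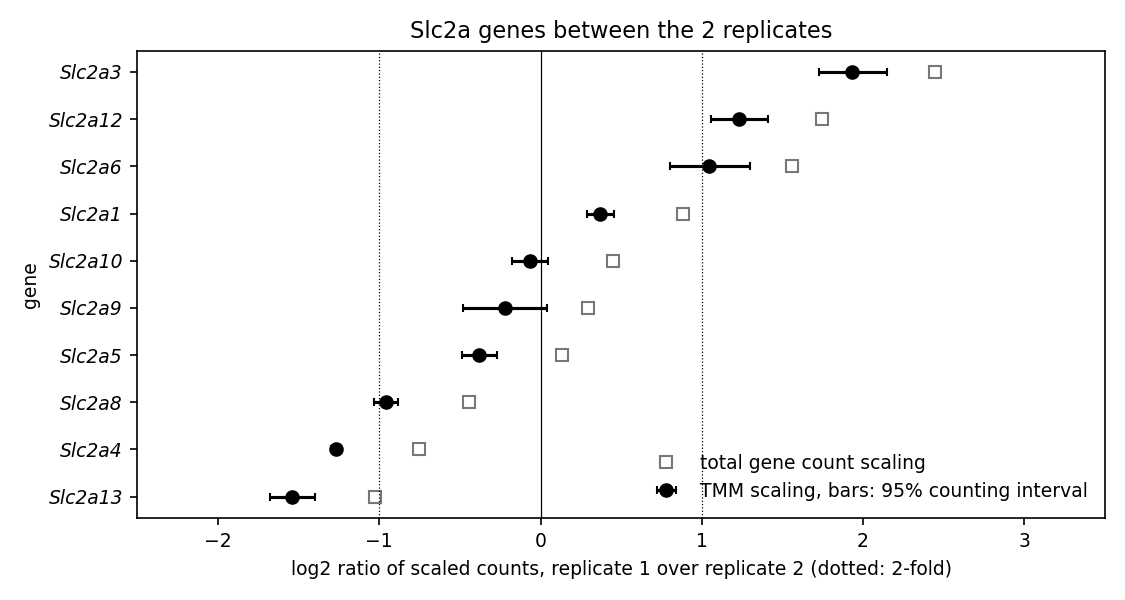
Log2 ratio of scaled counts, replicate 1 over replicate 2, for the 10 Slc2a genes, with filled points and bars for TMM scaling and its 95% counting interval, and open squares for scaling by total gene count. Under TMM, the intervals of Slc2a3 and Slc2a12 lie right of the right dotted 2-fold line and those of Slc2a4 and Slc2a13 left of the left one, and scaling by total count shifts each gene to the right by 0.51.

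The direction of several ratios rests on the scaling. Scaling by total gene count moved each log2 ratio up by 0.51, and scaling by synthetic spike-in RNAs by 0.46. Under either, Slc2a3 and Slc2a12 stayed over 2-fold higher in replicate 1, Slc2a6 joined them at 2.95 and 2.84, and none of the 10 was called higher in replicate 2. The ratios of Slc2a5, Slc2a9 and Slc2a10, which lay below 1 under TMM, lay above 1 by total count. By total count 22.3% of all genes tested were higher in replicate 1 and 4.40% in replicate 2, and by spike-ins 20.9% and 4.88%. Across all genes, 54.2% of calls were higher in replicate 1 under TMM, 83.5% under total count and 81.1% under spike-in scaling.

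Among the class I genes, Slc2a4 (ENSMUSG00000018566.10, GRCm38 chromosome 11, 69942539 to 69948188, minus strand) encodes the transporter that answers to insulin. It had 13488 counts and 168 TPM in replicate 1, against 24368 counts and 251 TPM in replicate 2, a mean of 209 ± 59.1 TPM (SD, n = 2). Its scaled count was 2.41-fold lower in replicate 1 (interval 2.36 to 2.46). The TPM ratio was 0.668 and the ratio by total count 0.594, so the direction held but the gap fell within 2-fold. Adipocyte markers were lower in replicate 1 in the same comparison, with 6 of 6 over 2-fold lower and a median log2 ratio of -2.52, and their part in the Slc2a4 ratio was not tested. In bulk tissue, fewer cells of a type and less RNA per cell cannot be told apart.

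Slc2a1 (ENSMUSG00000028645.6, chromosome 4, 119108711 to 119137983, plus strand) encodes the basal transporter GLUT1. It had 3155 counts and 35.1 TPM in replicate 1, against 1832 counts and 17.4 TPM in replicate 2, a mean of 26.2 ± 12.5 TPM (SD, n = 2). The scaled ratio was 1.29 (interval 1.22 to 1.37), within the 2-fold bound. By total count it was 1.85 and by spike-ins 1.77, neither called, and the TPM ratio was 2.02. Slc2a4 TPM was 4.78 times that of Slc2a1 in replicate 1 and 14.5 times in replicate 2, so the balance between the insulin-responsive and the basal transporter was tilted to Slc2a4 in both libraries, and further in replicate 2.

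Slc2a3 (ENSMUSG00000003153.6, chromosome 6, 122727809 to 122801640, minus strand) encodes GLUT3, a high-affinity transporter best known from neurons and also made by blood cells. It had 1125 counts and 8.37 TPM in replicate 1, against 221 counts and 1.46 TPM in replicate 2. Its scaled count was 3.82-fold higher in replicate 1 (interval 3.31 to 4.44), the highest ratio of the 10 genes. Markers of epithelium, smooth muscle, reproductive tract and cell division were also higher in replicate 1, with 5 of 5, 5 of 5, 5 of 5 and 4 of 4 over 2-fold higher. The 5 macrophage markers, with 717 TPM in replicate 1 and 569 TPM in replicate 2, stayed within the bound at a median log2 ratio of -0.08. Nerve and erythroid markers were lower in replicate 1, at median log2 ratios of -1.10 and -0.90. Of those tested, 2 of 4 nerve and 1 of 3 erythroid markers were over 2-fold lower there. The part of all these markers in the Slc2a3 ratio was not tested.

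The coding sequences of the class I genes are the closest of the family. Aligned over the longer of each pair, Slc2a1 and Slc2a3 shared 69.6% of bases, Slc2a1 and Slc2a4 68.6% and Slc2a3 and Slc2a4 64.4%. The next pair was Slc2a6 and Slc2a8 at 60.8%, and the lowest was Slc2a3 and Slc2a13 at 46.8%. Even so, 0 of the 10 genes held a stretch of 76 bases, the length of a read, that occurs in another of them. Elsewhere in the annotation, 3 held such stretches, Slc2a1 with 0.806% of them in Gm12868, Slc2a3 with up to 0.492% in any 1 gene, and Slc2a12 with 7.98% in Tbpl1.

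In class II, Slc2a5 (ENSMUSG00000028976.6, chromosome 4, 150119283 to 150144169, plus strand) encodes the fructose transporter GLUT5. It had 1477 counts and 26.0 TPM in replicate 1, against 1442 counts and 21.9 TPM in replicate 2, a mean of 23.9 ± 2.93 TPM (SD, n = 2). More of this TPM was assigned to a short noncoding transcript than to the mRNA that encodes GLUT5. Slc2a5-204, a processed transcript of 594 bases in 5 exons, took 14.0 TPM in replicate 1 and 12.3 TPM in replicate 2 from 200 and 204 counts. Slc2a5-201, the coding transcript of 3158 bases in 14 exons, took 11.45 and 9.53 TPM from 1267 and 1238 counts. Transcripts annotated as not coding thus held 56.0% and 56.4% of the gene's TPM but 14.2% and 14.2% of its counts.

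Among protein-coding genes with at least 100 counts in each replicate, 8.04% had at least 50% of their TPM in such transcripts in both replicates. Slc2a5 was the 1 gene of the 10 that did. The scaled count of Slc2a5 had a ratio of 0.769 (interval 0.715 to 0.828), while its TPM ratio, without TMM factors, was 1.19. With coding transcripts alone the TPM ratio was 1.20, and the count ratio by total count was 1.10. The start of Slc2a5-204 (GRCm38, plus strand, chr4:150139553-150139660) is shown because it separates the short transcript from the mRNA. Capitals mark 78 bases that lie in an intron of Slc2a5-201, and lower case marks the first bases of its exon 9.
Slc2a5-204 start: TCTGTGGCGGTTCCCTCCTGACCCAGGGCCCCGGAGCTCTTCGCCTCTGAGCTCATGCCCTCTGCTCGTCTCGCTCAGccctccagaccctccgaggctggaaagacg

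Slc2a9 (ENSMUSG00000005107.9, chromosome 5, 38349273 to 38503143, minus strand) encodes GLUT9, which is known above all as a urate transporter. It was the lowest of the 10 by mean, with 262 counts and 2.83 TPM in replicate 1, against 229 counts and 1.84 TPM in replicate 2. Its scaled ratio of 0.859 had an interval of 0.717 to 1.03, which includes no difference. The gene has alternative starts that give the protein different first residues. Slc2a9-203 led in both replicates with 65.5% of the gene's TPM in replicate 1 and 62.4% in replicate 2, on 236 and 171 counts. The authors' posterior mean estimates give it 39.3% and 40.6%, so its share, though not its lead, rests on the estimate used. Slc2a9-201, Slc2a9-202, Slc2a9-205, Slc2a9-209 and Slc2a9-210 begin their coding sequence at another exon, and each had 0 counts in both replicates. The posterior mean estimates gave each of them between 1.02% and 4.09% in replicate 1 and between 1.10% and 3.31% in replicate 2.

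The first coding exons (GRCm38, minus strand) show the choice of start, with the start codon in capitals. The exon of Slc2a9-203 lies at chr5:38480039-38480131 and that of Slc2a9-201 at chr5:38483317-38483364.
Slc2a9-203: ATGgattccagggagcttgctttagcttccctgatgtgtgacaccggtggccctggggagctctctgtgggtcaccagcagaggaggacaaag
Slc2a9-201: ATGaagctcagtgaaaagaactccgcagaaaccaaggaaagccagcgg

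In class III, Slc2a8 (ENSMUSG00000026791.10, chromosome 2, 32972990 to 32982083, minus strand) encodes GLUT8, which is held on internal membranes. It was second by mean, with 2667 counts and 62.0 TPM in replicate 1, against 3891 counts and 46.6 TPM in replicate 2 (54.3 ± 10.9 TPM, SD, n = 2). Counts and TPM gave opposite directions: the scaled count was 1.94-fold lower in replicate 1 (interval 1.85 to 2.04), and the TPM was 1.33 times as high there. The gene's 2 largest transcripts by TPM differed in opposite directions. Slc2a8-201, the coding transcript of 2108 bases, took 31.3 TPM in replicate 1 and 42.3 TPM in replicate 2. Slc2a8-202, a processed transcript of 343 bases, took 25.2 TPM in replicate 1 on 122 counts and was at 0 counts in replicate 2.

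Slc2a8-202 thus held 40.7% of the gene's TPM in replicate 1 but 4.57% of its counts. Set against a floor of 3 counts in replicate 2, its TMM-scaled count was 30.5-fold higher in replicate 1. That value takes the estimated count of replicate 1 as exact and is no bound. Posterior mean estimates gave it 40.8% of the gene in replicate 1 and 0.96% in replicate 2. How reads were divided between the overlapping transcripts was not checked. With coding transcripts alone, Slc2a8 had 32.2 TPM in replicate 1 and 42.4 TPM in replicate 2, a ratio of 0.761 on the same side as the counts. Noncoding transcripts held 48.0% of its TPM in replicate 1 and 9.10% in replicate 2. A shift of at least 30 percentage points was seen in 1.04% of protein-coding genes with at least 100 counts in each replicate, and Slc2a8 was the 1 gene of the 10 that showed it.

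The junction of exon 2 and exon 3 sets the transcripts apart and is shown for that reason (GRCm38, minus strand). Slc2a8-202 has 3 exons and Slc2a8-201 has 10, and the third exon of Slc2a8-202 leaves out the first 28 bases of that of Slc2a8-201. The stretches span chr2:32981538-32981750 for Slc2a8-201 and chr2:32981510-32981750 for Slc2a8-202, and capitals mark the first 30 bases of exon 3.
Slc2a8-201: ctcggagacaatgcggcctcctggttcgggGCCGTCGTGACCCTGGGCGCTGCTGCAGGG
Slc2a8-202: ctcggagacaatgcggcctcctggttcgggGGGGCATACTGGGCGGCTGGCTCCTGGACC

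**Figure D3:**
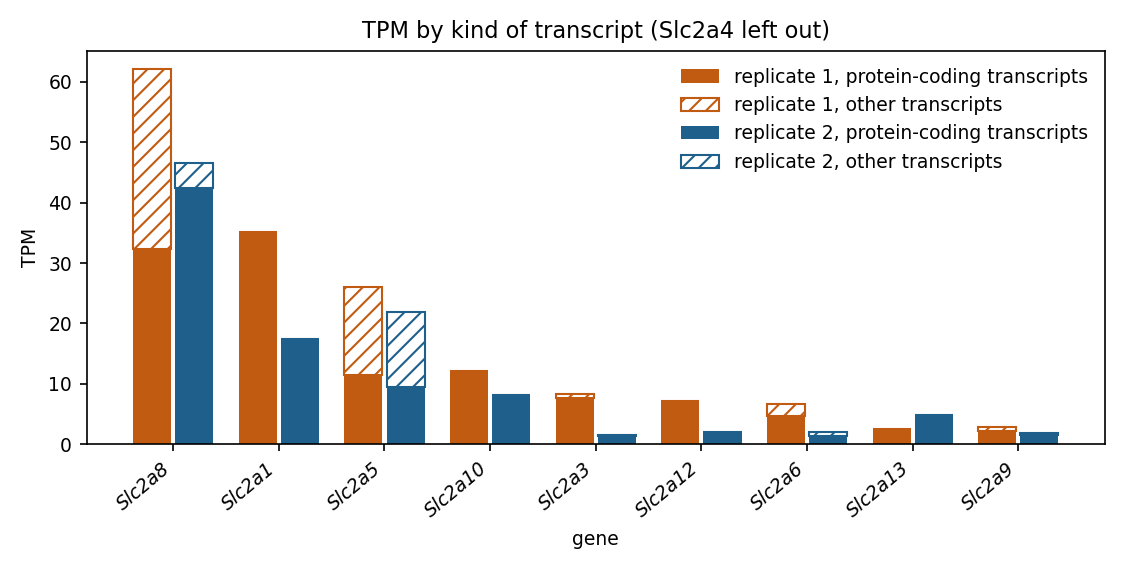
TPM of 9 Slc2a genes (Slc2a4 is left out for scale) in replicates 1 and 2, as bars from 0 split into protein-coding transcripts (filled) and all other transcripts (hatched). The hatched part takes 48.0% of the Slc2a8 bar in replicate 1 and 9.10% in replicate 2, and over 50% of both Slc2a5 bars.

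Slc2a10 (ENSMUSG00000027661.4, chromosome 2, 165503787 to 165519917, plus strand) encodes GLUT10, whose loss in human causes arterial tortuosity. It had 1525 counts and 12.2 TPM in replicate 1, against 1199 counts and 8.16 TPM in replicate 2. The scaled ratio of 0.955 (interval 0.885 to 1.03) was the nearest to 1 of the 10, whereas the TPM ratio was 1.49. Slc2a5, Slc2a8, Slc2a9 and Slc2a10 are the 4 genes whose TMM-scaled counts and TPM fell on opposite sides of 1. By total count, Slc2a5, Slc2a9 and Slc2a10 lay above 1, on the side of their TPM, while Slc2a8 stayed below at 0.735.

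Slc2a12 (ENSMUSG00000037490.5, chromosome 10, 22645011 to 22704285, plus strand) encodes GLUT12, a glucose transporter known from muscle and fat. It had 1070 counts and 7.20 TPM in replicate 1, against 342 counts and 1.96 TPM in replicate 2. The scaled count was 2.35-fold higher in replicate 1 (interval 2.08 to 2.66). The gene overlaps Tbpl1 on the opposite strand, which had 926 and 449 counts, and 7.98% of its 76-base stretches occur there on the other strand. The strand setting of the counting is not stated, so reads of that overlap cannot be assigned with certainty. Smooth muscle and epithelial markers were higher in replicate 1 too, as given for Slc2a3, while adipocyte markers were lower, as given for Slc2a4. The part of these markers in the Slc2a12 ratio was not tested.

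Slc2a6 (ENSMUSG00000036067.8, chromosome 2, 27021363 to 27027998, minus strand) encodes GLUT6, a lysosomal transporter in mouse macrophages. It had 509 counts and 6.69 TPM in replicate 1, against 185 counts and 2.07 TPM in replicate 2. Its scaled ratio was 2.07, but the interval of 1.74 to 2.46 crosses 2. Slc2a6-201, which is coding, held 68.5% of its TPM in replicate 1 and 66.2% in replicate 2, and Slc2a6-205, a processed transcript, 18.4% and 25.7%. By these estimates the share of coding transcripts was alike in both libraries while the level was not. Posterior mean estimates gave Slc2a6-201 62.4% in replicate 1 and 54.2% in replicate 2, so its share rests on the estimate used.

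Slc2a13 (ENSMUSG00000036298.10, chromosome 15, 91267696 to 91573261, minus strand) encodes HMIT, which carries myo-inositol together with protons and so departs from the facilitative mode of its relatives. It had 618 counts and 2.61 TPM in replicate 1, against 1349 counts and 4.87 TPM in replicate 2. Its scaled count was 2.91-fold lower in replicate 1 (interval 2.64 to 3.20), the lowest ratio of the 10. By TPM the ratio was 0.536, and by total count 0.491, neither called. Endothelial markers were lower in replicate 1 as well, 4 of 5 over 2-fold with a median log2 ratio of -1.42 and sums of 642 TPM in replicate 1 and 1103 TPM in replicate 2, though by total count 0 of 5 were called at a median of -0.90, and their part was not tested.

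With coding transcripts alone, the class III genes summed to 58.9 TPM in replicate 1 and 58.7 TPM in replicate 2 (58.8 ± 0.184 TPM, SD, n = 2), against 90.7 and 63.7 TPM with all transcripts. The near-level sum holds genes that differed both ways, with coding TPM ratios of 3.67 in Slc2a12, 3.44 in Slc2a6, 1.49 in Slc2a10, 0.761 in Slc2a8 and 0.537 in Slc2a13, on a scale without TMM factors. Slc2a4 then took 57.3% and 73.1% of the family sum of 270 and 329 TPM. Slc2a5 averaged 10.5 TPM in place of 23.9. The coding transcripts differ in build as well, with 5 exons in Slc2a10 and Slc2a12 and 10 to 14 in the other 8 genes, and with 1431 coding bases in Slc2a8 up to 1911 in Slc2a13.

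The transcript that led in replicate 1 led also in replicate 2 for all 10 genes, as it did for 86.2% of the genes with several transcripts and at least 100 counts in each replicate. In Slc2a1, Slc2a10 and Slc2a12 a single transcript took 100% in both libraries. Slc2a13-202 held 99.2% and 98.9%, Slc2a4-201 84.0% and 88.4%, and Slc2a3-201 82.9% and 85.6%. By posterior mean estimates the share of Slc2a3-201 was 72.5% and 52.9%. The leading share of Slc2a8-201, at 50.5% and 90.8%, differed the most of the 10.

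In the list of GLUT4 vesicle and trafficking genes, 16 of 16 had 1 TPM or more in each library. That share was 29.4% over all annotated genes and 55.5% over protein-coding genes. Of the 16 listed genes, 1 was over 2-fold higher in replicate 1, 3 were higher in replicate 2 and 12 lay within the bound. The share apart was thus near the 23.1% of all genes tested. The median log2 ratio was -0.44 under TMM and 0.07 by total count. Trarg1, a membrane protein of GLUT4 vesicles, was 5.92-fold lower in replicate 1 (26.6 TPM in replicate 1 and 101 TPM in replicate 2). Sort1, which encodes the sorting receptor sortilin, was 2.41-fold lower (88.5 and 132.5 TPM), and the motor gene Myo1c 2.10-fold lower (132 and 169 TPM). By total count the ratios of Sort1 and Myo1c were 0.594 and 0.679, neither called, whereas Trarg1 and Tbc1d1 kept their calls. Tbc1d1, a Rab GTPase-activating protein of the insulin pathway, was 3.10-fold higher in replicate 1 (27.9 and 5.62 TPM). Lrp1, a receptor found in the vesicles, had the highest mean of the list at 217 ± 62.1 TPM (SD, n = 2).

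Of the 11 genes of hexose phosphorylation and the first steps of sugar use, 9 could be tested, and 1 was called, against 23.1% of all genes tested. Hk2, the hexokinase of insulin-sensitive tissues, was 2.42-fold lower in replicate 1 (22.6 TPM in replicate 1 and 34.2 TPM in replicate 2). That call was lost at 0.590 by total count and 0.567 by spike-ins, where the hexokinase gene Hk1, at 1.64 under TMM, was instead called higher in replicate 1 at 2.34 and 2.25. The leading genes of the list, Gpi1 (290 ± 40.5 TPM), Pfkl (131 ± 10.1 TPM) and Pfkp (42.0 ± 4.67 TPM, SD, n = 2), lay within the bound. The median log2 ratio of the list was -0.37 under TMM and 0.15 by total count.

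Of the 9 other sugar and inositol carriers, 3 could be tested. Slc5a11, a sodium-coupled inositol carrier, was 16.6-fold higher in replicate 1 (interval 10.3 to 28.2) on 397 counts in replicate 1 and 18 in replicate 2. Slc5a3, another such carrier, was 3.12-fold lower in replicate 1, the same direction as the inositol carrier gene Slc2a13. Slc50a1, a sugar carrier of the SWEET family, averaged 149 ± 18.0 TPM (SD, n = 2) and lay within the bound. Slc5a11 and Slc5a3 kept their calls by total count and by spike-ins.

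Among the regulators of glucose transporters, 6 of 12 were over 2-fold lower in replicate 1 and 0 higher under TMM, against 10.6% lower and 12.5% higher in replicate 1 among all genes tested. By total count or spike-ins 3 of the 12 were lower in replicate 1. The median log2 ratio was -0.76 under TMM and -0.24 by total count. Txnip, an arrestin-like protein that takes glucose transporters off the surface, was 3.91-fold lower in replicate 1 (533 TPM in replicate 1 and 1740 TPM in replicate 2). The nuclear receptor genes Pparg and Nr1h3 were 3.63-fold and 3.46-fold lower. Mlxipl, which encodes the glucose-sensing factor ChREBP, was 2.70-fold lower, Cebpa 2.45-fold and Klf15 2.09-fold. By total count these 3 lost their calls at ratios of 0.528, 0.583 and 0.682, while Txnip, Pparg and Nr1h3 kept theirs. Srebf1, a lipogenic factor, had 306 ± 47.1 TPM (SD, n = 2) and lay within the bound.

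Over the 4 lists, 40 genes were tested, of which replicate 1 was higher for 2 and replicate 2 for 11 under TMM, against 3 and 5 by total count or spike-in scaling. The shares over all genes tested were 12.5% and 10.6% under TMM, and 22.3% and 4.40% by total count. As several of these regulators also mark fat cells, the lower adipocyte markers of replicate 1 stand beside these counts, and their part was not tested.

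**Figure D4:**
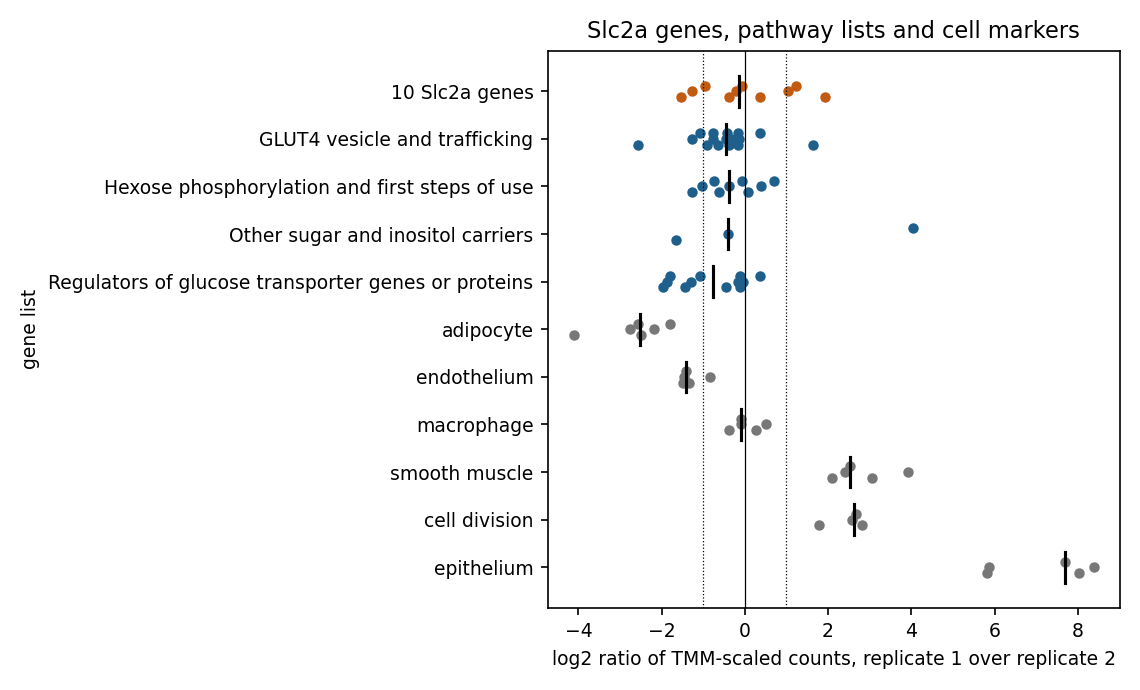
Log2 ratio of TMM-scaled counts, replicate 1 over replicate 2, with 1 point per tested gene for the Slc2a genes, 4 pathway lists and 6 of the marker lists; black bars are medians and dotted lines mark 2-fold. The Slc2a genes spread on both sides of 0 with a median of -0.14, while adipocyte markers lie at a median of -2.52 and epithelial markers at 7.69.

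For 4 of the 10 genes, the genes of the pathway and marker lists with the nearest log2 ratio were sought among 88 candidates, a likeness that rests on 2 libraries and is a description only. Nearest to Slc2a4, at -1.27, were Sort1, Hk2 and Cebpa. Nearest to Slc2a1, at 0.37, were Lrp1, Hif1a and Dpp4. Slc2a3, at 1.93, had Cdk1 at 1.78, Tagln at 2.09 and Esr1 at 2.18. Slc2a13, at -1.54, had Egfl7 at -1.50, Cdh5 at -1.45 and Pi16 at -1.44.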

How the data were processed

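The authors deposited, for each library, gene and transcript tables with an expected count (reads that match several features are divided among them), TPM and FPKM. For each transcript, the deposited tables add its percent of the TPM of its gene. Deposited bounds on TPM, treated as a score because their level is not stated, were not printed. Per the file notes deposited beside the tables, reads were placed on mm10 with GENCODE M4. The columns are of the kind RSEM writes, but the counting program and its strand setting are not given in the sources used here.

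Gene symbols, coordinates, transcript names and biotypes, and sequences are from GENCODE M21 on GRCm38 (mm10). The 884 genes with no symbol held 0.120% of gene counts in replicate 1 and 0.0762% in replicate 2. Expected counts were rounded and scaled by TMM with edgeR 4.0.16 (R 4.3.3), with factors of 1.20 and 0.837, over annotated genes without spike-ins. The 95% intervals and the floor of 3 counts cover counting error only. DESeq2 1.42.0 gave size factors for an alternative. TPM values carry no TMM scaling, and no p-value was computed, as each side is 1 library.

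The members and lists were chosen with earlier results of these data known. All members are named, with the 3 genes of highest mean TPM and every called gene of each pathway list, the 3 nearest genes by log2 ratio for Slc2a1, Slc2a4 and the members of highest and lowest ratio, and transcripts with at least 20% of a gene. Other transcripts were named after their values were seen. Of 5 genes in the skeletal muscle list 1 was tested, at a log2 ratio of 0.18. The median log2 ratio was -0.90 for erythroid, 0.38 for fibroblast and progenitor, -1.10 for nerve, 8.05 for reproductive tract, 2.53 for smooth muscle and 2.62 for cell division markers. A further pair of tables on build mm9 was not used here.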

Additional observations from a re-analysis of the deposited data

How the results depend on the processing

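The count of 10 members at a TPM of at least 1 could not fall at a threshold of 0.5 or with a replicate left out. It was also 10 with FPKM, posterior mean TPM or coding-transcript TPM, and it was 5 at a TPM threshold of 5. The 4 members over 2-fold apart became 3 by total count or spike-in scaling, where Slc2a4 (0.594 and 0.570) and Slc2a13 (0.491 and 0.472) lost their call and Slc2a6 gained one. The 13 pathway genes became 8 by total count and 8 by spike-in scaling. The 3101 calls over all genes became 2033 with a minimum mean scaled count of 500 and 5336 with a 1.5-fold bound. Over all alternatives, 31 counts of genes lay within 1.5 times the reported count and 5 did not, the 31 including the settings that could not lower the count of 10. Of the levels, 54 moved by less than the spread between replicates and 6 by more. Leaving out 1 of 2 replicates always moves their mean by less than that spread, so those settings could not count as moved. Coding-transcript TPM could not move Slc2a1, Slc2a10 or Slc2a12, whose TPM lies in 1 coding transcript. FPKM is another unit, so the moves of Slc2a5, Slc2a8 and Slc2a10 under it include that change of unit. The ratios were less stable: 40 kept their value or their call, 28 moved, 10 lost a call and 2 gained one. The 40 include ratios that kept a call while the value shifted. By total count Slc2a3 went from 3.82 to 5.46 and Slc2a12 from 2.35 to 3.36. Of the shares of leading transcripts, 23 held and 7 moved, all 7 under posterior mean estimates, where the mean share of Slc2a9-203 was 39.9%. As with the levels, leaving out a replicate could not move a share by more than the spread between replicates. Slc2a8-201, at 50.5% in replicate 1 and 90.8% in replicate 2, thus counted as held. The coding-transcript TPM was chosen as an alternative after seeing the data. No paired analysis was possible because there is a single group. With 2 libraries, the ratio of 1 to the other has no replicate, and low members such as Slc2a9 have wide intervals.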

Other observations

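Other genes of the family lay near the floor of detection. Slc2a2, which encodes the liver and islet transporter GLUT2, had 9 counts in replicate 1 and 34 counts in replicate 2, which correspond to 0.10 and 0.33 TPM. Slc2a7, an intestinal transporter, had 2 counts in replicate 1 and 0 counts in replicate 2, under the floor of 3 counts in both.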
